A study of Rattus norvegicus with 5 samples.

Results

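The genes described here are 6 genes of dopamine synthesis and transport, *Gch1*, *Th*, *Ddc*, *Slc18a2*, *Slc10a4* and *Slc6a3*, chosen by name from the 32883 genes of single-nucleus RNA sequencing (snRNA-seq) libraries of the rat ventral tegmental area (VTA), the midbrain region that holds the mesolimbic dopamine neurons. Each of 5 libraries came from 1 adult male Sprague-Dawley rat, with the VTA punches of both sides combined, and all belonged to 1 condition. The sample labels name the treatment saline and the tissue brain, whereas the study describes drug-naïve rats and VTA punches. No treated group was compared, so the comparisons below are between cell types, and between nuclei and free RNA, within the same rats, and nothing says whether the rats were processed as separate batches. Transcripts were counted as unique molecular identifiers (UMIs), which tag single captured 3′ ends. Levels are UMIs of a gene per 10000 UMIs of all genes, summed over the nuclei of a type in a rat. Tests of levels compared 1 gene between groups, and shares and ratios between genes are given as descriptions only.

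Dopamine is made from tyrosine in the cytoplasm and packed into vesicles. *Gch1* encodes GTP cyclohydrolase, which starts the synthesis of tetrahydrobiopterin, the cofactor of tyrosine hydroxylase. *Th* encodes that hydroxylase, the rate-limiting enzyme, and *Ddc* the decarboxylase that turns L-DOPA into dopamine and also 5-hydroxytryptophan into serotonin. *Slc18a2* encodes the vesicular monoamine transporter VMAT2, *Slc10a4* an orphan carrier of monoaminergic and cholinergic synaptic vesicles, and *Slc6a3* the plasma membrane dopamine transporter. Serotonin neurons use *Gch1*, *Ddc* and *Slc18a2* as well, but neither *Th* nor *Slc6a3*.

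The sequences before the annotated starts of 4 of the genes are shown because these genes were detected together in the same nuclei, and matches in them are descriptions only. The windows come from RefSeq, build GRCr8, in which all 6 genes were matched, and the stretches printed are the 150 bases before the start, 5′ to 3′ on the strand of the gene. They lie at chr1:207508219-207508368 (minus strand) for *Th*, chr1:268399871-268400020 (plus) for *Slc18a2*, chr14:90682784-90682933 (minus) for *Ddc* and chr1:31578963-31579112 (minus) for *Slc6a3*. Capitals mark matches, on either strand, to 4 of 6 motifs searched in windows running from 250 bases before to 50 bases after the start.
Th: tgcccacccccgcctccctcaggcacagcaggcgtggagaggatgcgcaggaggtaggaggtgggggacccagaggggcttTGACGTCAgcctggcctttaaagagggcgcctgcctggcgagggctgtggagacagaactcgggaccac
Slc18a2: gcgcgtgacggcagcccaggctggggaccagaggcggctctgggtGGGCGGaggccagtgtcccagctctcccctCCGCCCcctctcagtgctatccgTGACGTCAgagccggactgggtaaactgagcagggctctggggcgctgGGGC
Ddc: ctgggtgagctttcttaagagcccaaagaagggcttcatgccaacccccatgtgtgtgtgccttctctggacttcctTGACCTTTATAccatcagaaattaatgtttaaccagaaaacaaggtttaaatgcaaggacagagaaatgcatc
Slc6a3: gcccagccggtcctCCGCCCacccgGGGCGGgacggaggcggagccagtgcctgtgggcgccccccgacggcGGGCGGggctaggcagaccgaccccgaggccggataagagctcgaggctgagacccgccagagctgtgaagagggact

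The cAMP response element, searched as TGACGTCA, was found once in the *Th* window, 69 bases before the start, and once in the *Slc18a2* window, 52 bases before it. Of 33469 windows in the table, 1.83% held it. The first of 3 *Ddc* windows held the complement of the NR4A site AAAGGTCA, 73 bases before the start, overlapping the complement of TATAAA, and these letters were in 1.43% and 14.2% of all windows. The other 2 *Ddc* windows held no match. The GC box GGGCGG, present in 33.1% of windows, was found 3 times in the *Slc6a3* window and 3 times in that of *Slc18a2*, where the copy nearest the start runs past it and is cut in the printed stretch. The windows of *Slc10a4* and *Gch1* held 6 and 2 GC boxes, some of them overlapping. TAATCC, for PITX factors, and TGTTTAC, for FOXA factors, were in none of these windows and in 7.17% and 3.78% of all windows. GC content was 65.3% for *Th*, 68.0% for *Slc6a3*, 68.3% for *Slc18a2* and 44.7% for the first *Ddc* window, against a median of 51.7% over all windows.

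The libraries held between 10193355 and 88576210 UMIs. Barcodes with at least 1000 UMIs, more than 200 and fewer than 5000 genes and under 5% mitochondrial UMIs were taken as nuclei, which gave 1813, 9336, 2284, 4823 and 3828 barcodes in rats 1 to 5 (22084 in all), with medians of 1605.5 to 3526 UMIs. Rat 1 and rat 3 stood apart. In rat 1, 3121 of 5218 barcodes of at least 1000 UMIs had 5% or more mitochondrial UMIs, and only 17 nuclei were dopaminergic-like, 13 of them in sub-cluster 12, the one described below as lowest in all 6 genes. Rat 3 had the fewest UMIs, and 298 of its 300 dopaminergic-like nuclei formed a sub-cluster of their own. Clusters were found and named without the 6 genes. The dopaminergic-like class was made of the 5 neuronal sub-clusters in which 10 to 12 of 12 other dopaminergic markers, such as *Pitx3* and *Drd2*, were raised, and held 1094 of 5604 neurons. The remaining neurons were 2674 GABA-like, 650 intermediate (6 to 8 of 12 dopaminergic markers raised), 241 glutamate-like and 161 serotonergic-like nuclei, 705 that also carried glial transcripts and 79 that were not named. Glia were mainly 8751 oligodendrocytes, 791 oligodendrocyte precursors (OPCs), 783 astrocytes and 381 microglia.

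All 6 genes had their highest level among neurons, averaged over rats, in dopaminergic-like or serotonergic-like nuclei. *Th*, *Ddc*, *Slc6a3* and *Slc10a4* were highest in dopaminergic-like nuclei, whereas *Slc18a2* and *Gch1* were as high in serotonergic-like ones. Against all other neurons of the same rat, 5 of the 6 genes were higher in dopaminergic-like nuclei in every rat, and 7.15% of 14006 genes with at least 50 UMIs were. *Gch1* was higher in 4 of 5 rats. The mean log2 ratio of each gene was larger than that of between 99.6% and 99.9% of those genes. With low-UMI clusters, 3482 barcodes left out here, counted as other neurons, an alternative added after the data had been seen, 2 of the 6 were higher in every rat, where 9.39% of 14441 genes were. The genes most raised in low-UMI cluster 4 included *Slc6a3*, *Slc18a2* and *Th*, and those in cluster 5 *Lmx1b*, *Lmx1a* and *Drd2*. That alternative therefore counts barcodes with dopaminergic markers as other neurons. With 5 rats, exact permutation of the signs of the ratios (two-sided) cannot go below p = 0.0625, which each of the 6 ratios reached with 0.5 UMIs added to each sum, so no difference of levels between cell types could pass 0.05.

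*Gch1* was counted at 0.224, 1.06, 1.27, 0.861 and 1.09 UMIs per 10000 in the dopaminergic-like nuclei of rats 1 to 5, and at 0.249, 0.104, 0.17, 0.0802 and 0.0743 in other neurons. Rat 1, with 3 *Gch1* UMIs in its 17 nuclei, 13 of them of the sub-cluster lowest in *Gch1*, was the exception. In the other rats the groups did not overlap, and the share of all genes separated in this way was not counted. With those 0.5 UMIs added, as in all log2 ratios of levels below, the log2 ratio was 2.71 ± 1.53 (SD, n = 5).

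*Th* was counted at 2.24, 6.22, 5.57, 3.81 and 5.56 UMIs per 10000 in dopaminergic-like nuclei (4.68 ± 1.63, SD, n = 5) and at 0.633, 1.26, 0.906, 0.414 and 0.582 in other neurons. The lowest dopaminergic-like value, in rat 1, lay above the highest value of other neurons, in rat 2. Again, the share of all genes separated in this way was not counted. The log2 ratio was 2.64 ± 0.60.

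*Ddc* had levels of 7.32, 13.0, 16.5, 10.6 and 10.5 in dopaminergic-like nuclei (11.6 ± 3.39) against 1.03, 1.25, 2.45, 1.15 and 1.05 in other neurons. Rat 3 was highest in both groups. The *Ddc* log2 ratio, 3.09 ± 0.29, had the smallest SD of the 6 genes.

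For the vesicular transporter *Slc18a2*, levels were 1.72, 3.75, 2.08, 2.71 and 3.02 in dopaminergic-like nuclei (2.66 ± 0.796) and 0.385 to 0.468 in other neurons, which hardly varied between rats. The log2 ratio was 2.56 ± 0.41. *Slc10a4* was at 0.149, 0.340, 0.814, 0.229 and 0.211 against 0.01 to 0.0904, with rat 3 well above the others and a log2 ratio of 3.29 ± 1.33.

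The dopamine transporter gene *Slc6a3* was at 2.69, 8.29, 4.81, 4.39 and 6.07 in dopaminergic-like nuclei (5.25 ± 2.09) and at 0.373, 1.0, 0.497, 0.331 and 0.385 in other neurons. Rat 2 was highest in both groups. The log2 ratio was 3.37 ± 0.47, which is a 10.4-fold difference on that scale.

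**Figure D1:**
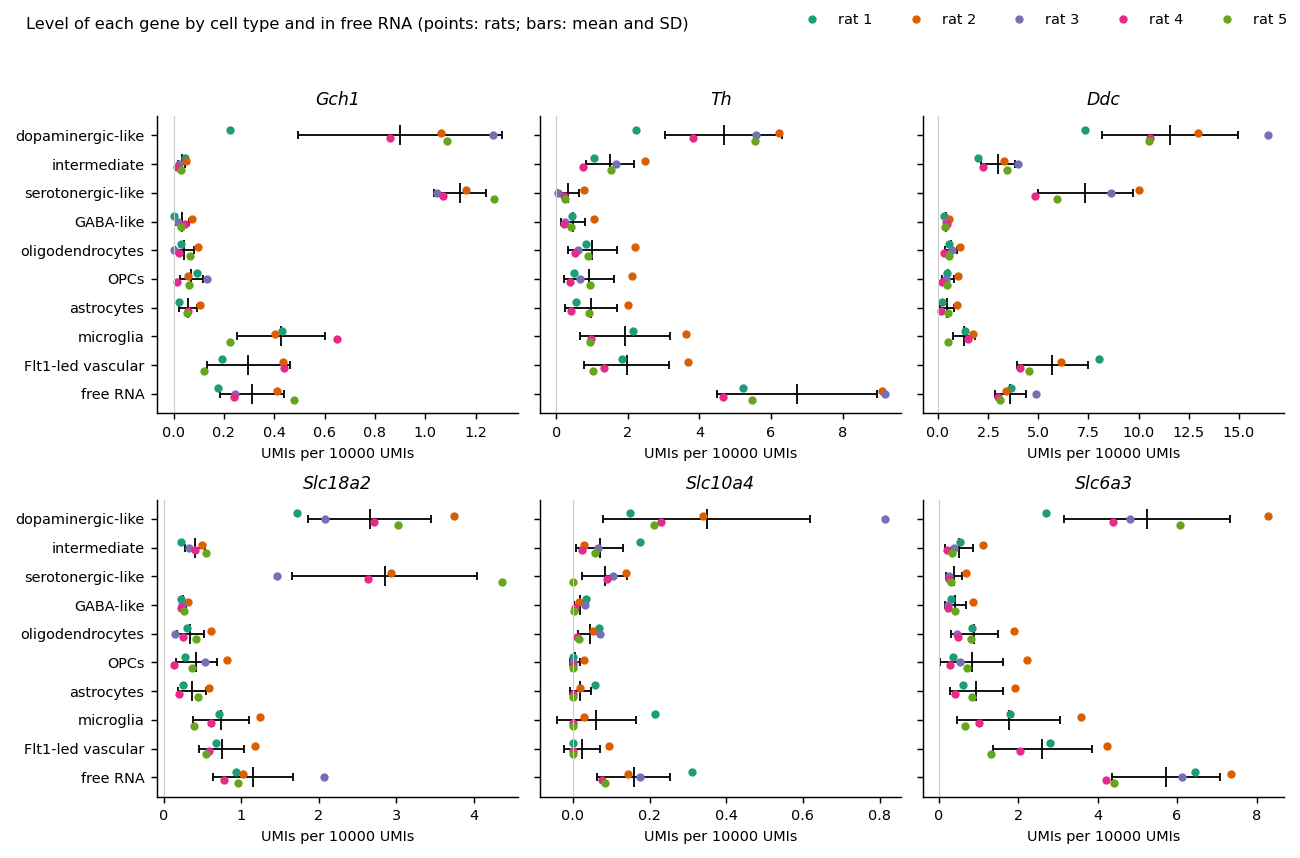
Level of each gene (UMIs per 10000 UMIs, linear axes that differ between panels) in 9 classes of nuclei and in free RNA. Points are rats, and vertical ticks with bars are the mean and SD over rats. *Th* and *Slc6a3* are high in dopaminergic-like nuclei and in free RNA, *Ddc* also in serotonergic-like and *Flt1*-led vascular nuclei, and *Slc18a2* and *Gch1* in serotonergic-like nuclei.

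Against GABA-like neurons alone, where *Ddc* was at 0.318, 0.560, 0.391, 0.430 and 0.374, *Ddc* in dopaminergic-like nuclei had a log2 ratio of 4.77 ± 0.36, which is 27.2-fold. *Gch1* was at 4.85 ± 0.85, *Slc10a4* at 4.43 ± 1.37, *Slc6a3* at 3.75 ± 0.56, *Th* at 3.45 ± 0.93 and *Slc18a2* at 3.38 ± 0.31, and all 6 genes were higher in every rat, as were 8.68% of 13314 genes.

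The dopaminergic-like sub-clusters spanned a wide range of *Slc6a3*. In the 282 nuclei of sub-cluster 6, *Slc6a3* was at 11.8, 8.81 and 9.50 in rats 2, 4 and 5, and in the 239 nuclei of sub-cluster 9 at 3.72, 2.90 and 3.15. *Th* was at 7.17, 5.04 and 6.84 in the first and at 6.02, 4.67 and 5.98 in the second. The sub-clusters were drawn from these same counts and differed in depth, with medians of 10567 and 7654 UMIs, so these values are a description. Pooled over rats, *Slc18a2* was at 4.66 against 2.68 and *Gch1* at 1.48 against 0.860 in these sub-clusters.

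Sub-cluster 20, with 84 nuclei and *Aldh1a1*, a retinaldehyde dehydrogenase gene used in naming the class, at 10.4 UMIs per 10000, had *Slc6a3* at 9.08 and *Th* at 6.38, pooled over rats. Sub-cluster 4, of rat 3, had *Ddc* at 16.6, *Th* at 5.50 and *Slc6a3* at 4.95. Sub-cluster 12 was the lowest in all 6 genes. In its 183 nuclei *Th* was at 1.94, *Ddc* at 6.53, *Slc6a3* at 1.20, *Slc18a2* at 0.903, *Slc10a4* at 0.0855 and *Gch1* at 0.183, and it also carried *Gad2*, which encodes a GABA synthesis enzyme, at 6.28, with *Gad1*, the gene of the other such enzyme, at 0.153. When this sub-cluster was left out, a choice made after the data were seen, 4 rats kept at least 10 dopaminergic-like nuclei, and all 6 genes were higher than in other neurons in each of them, where 14.5% of 13840 genes were.

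Serotonergic-like nuclei held *Ddc*, *Slc18a2* and *Gch1* at high levels and *Th* and *Slc6a3* at low ones. In rats 2 to 5 *Ddc* was at 10.0, 8.63, 4.82 and 5.94 in them, *Slc18a2* at 2.94, 1.46, 2.63 and 4.37, and *Gch1* at 1.16, 1.05, 1.07 and 1.27. *Th* was at 0.775, 0.0523, 0.223 and 0.243, and *Slc6a3* at 0.692, 0.261, 0.268 and 0.303. Set against GABA-like nuclei, *Ddc*, *Slc18a2* and *Gch1* were higher in each of 4 rats, with log2 ratios of 4.03 ± 0.40, 3.40 ± 0.62 and 4.94 ± 0.81, and 9.63% of 12482 genes were higher in every rat. *Slc10a4* was higher in 3 of the 4, at 3.08 ± 0.94, on 11 UMIs in serotonergic-like nuclei and 19 in GABA-like ones. The *Th* level was lower in each, as were 14.9% of genes, with a log2 ratio of -0.64 ± 0.76 that reached 0.11 in 1 rat once 0.5 UMIs were added, and *Slc6a3* was at -0.01 ± 0.32, on both sides of 0. *Th*, *Slc6a3*, *Slc10a4* and *Ddc* were higher in dopaminergic-like than in serotonergic-like nuclei in each of the 4 rats, as were 14.3% of 10990 genes. There, the log2 ratio of dopaminergic-like to serotonergic-like level was 0.08 ± 0.46 for *Slc18a2* and -0.12 ± 0.26 for *Gch1*, within the spread between rats, and 4.36 ± 1.33 for *Th* and 3.93 ± 0.27 for *Slc6a3*. With 4 rats the smallest p is 0.125. The serotonergic-like class pooled unlike sub-clusters. Sub-cluster 17 (110 nuclei, *Tph2* at 37.4) had *Ddc* at 13.0, *Slc18a2* at 3.70 and *Gch1* at 2.33, pooled over rats. Sub-cluster 29 (51 nuclei, *Tph2* at 2.37) had them at 3.74, 2.32 and 0.542. The glutamate carrier gene *Slc17a8* was at 3.72 in sub-cluster 17 and at 4.93 in sub-cluster 29.

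In intermediate nuclei *Th* and *Ddc* lay above GABA-like nuclei in every rat, and *Slc6a3* and *Gch1* did not. *Th* was at 1.05, 2.49, 1.68, 0.746 and 1.52 and *Ddc* at 2.0, 3.3, 4.01, 2.24 and 3.46, each above the GABA-like value of the same rat (log2 ratios of 1.78 ± 0.61 and 2.83 ± 0.43, where 7.93% of 12914 genes were higher in every rat). *Slc6a3* was at 0.523, 1.12, 0.392, 0.216 and 0.321, higher than in GABA-like nuclei in 3 of 5 rats, with a log2 ratio of 0.29 ± 0.46. *Gch1* was higher in 3 of 5, with 0.44 ± 1.61, and *Slc18a2* in 5 of 5, with 0.65 ± 0.39. Against these nuclei, dopaminergic-like nuclei were higher in every rat in 5 of the 6 genes, where 7.14% of 11703 genes were, and in *Slc10a4* in 4 of 5 rats. The log2 ratio was 3.46 for *Slc6a3* and 4.41 for *Gch1*, against 1.67 for *Th* and 1.94 for *Ddc*. Of the 650 nuclei, 252 were rat 3's own sub-cluster. Sub-clusters 5, 8 and 19, which made up the class, held the glutamate carrier gene *Slc17a6* at 1.69, 2.62 and 1.71, pooled over rats. In the dopaminergic-like sub-clusters it was at 0.101 to 0.989.

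Outside neurons, *Ddc* stood out in vascular nuclei led by *Flt1*, an endothelial receptor gene. The oligodendrocyte marker score of this cluster was 0.762 of its vascular score, above the 0.4 used to set mixed clusters apart. It was kept because *Flt1*, and no oligodendrocyte marker, was among its most raised genes. *Ddc* was at 8.03, 6.12, 4.10 and 4.54 in the *Flt1*-led nuclei of rats 1, 2, 4 and 5, and *Th* at 1.84, 3.68, 1.32 and 1.02. The *Ddc* values overlapped those of dopaminergic-like nuclei only in that rat 1 exceeded the 7.32 of its own 17 dopaminergic-like nuclei. Against oligodendrocytes the *Ddc* log2 ratio was 3.32 ± 0.66, that of *Gch1* 2.74 ± 1.47, that of *Slc6a3* 1.45 ± 0.62, that of *Slc18a2* 1.03 ± 0.42 and that of *Th* 0.90 ± 0.52, each higher in 4 of 4 rats, and 23.7% of 12596 genes were higher in every rat. Against astrocytes the *Ddc* log2 ratio was 3.96, and 25.4% of 9485 genes were higher in every rat. *Ddc* was at 171% ± 37.5 of the same rat's free RNA level, *Gch1* at 106% ± 65 and *Slc18a2* at 79.9% ± 24.6, whereas *Slc6a3* was at 44.9% ± 11.6 and *Th* at 30.6% ± 9.44. Of 238 *Flt1*-led nuclei, 146 held *Ddc*, and these had *Th* at 2.51 and *Slc6a3* at 2.98, against 2.34 and 2.94 in the 92 without it. Vascular nuclei led by *Rgs5*, another vascular marker, with *Flt1* also among their most raised genes, shared the raised *Ddc* in part. Their *Ddc* log2 ratio to oligodendrocytes was 1.87 ± 0.61 (SD, n = 3), larger than that of 86.3% of genes. Their *Ddc* was at 64.0% ± 17.0 of the free RNA level and their *Th* at 36.1% ± 5.64. Decarboxylation of L-DOPA in the capillary wall is a known part of the enzymatic blood-brain barrier.

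The share of nuclei with a UMI is given with the depth. In dopaminergic-like nuclei, at a median of 7072.5 UMIs, at least 1 UMI of *Ddc* was found in 95.3%, of *Th* in 81.9%, of *Slc6a3* in 72.9%, of *Slc18a2* in 63.4%, of *Gch1* in 37.8% and of *Slc10a4* in 19.0%. In oligodendrocytes, which are not known to make dopamine, the shares at a median of 2848 UMIs were 17.2%, 28.7%, 25.5%, 11.2%, 1.75% and 0.983%. Thinned to 1000 UMIs per nucleus, the shares in dopaminergic-like nuclei were 66.4% for *Ddc*, 37.3% for *Th*, 37.6% for *Slc6a3*, 22.4% for *Slc18a2*, 10.2% for *Gch1* and 3.75% for *Slc10a4*. Those in oligodendrocytes were then 6.73%, 11.9%, 10.1%, 4.13%, 0.697% and 0.320%. *Ddc*, detected in fewer oligodendrocytes than *Th* or *Slc6a3*, was detected in more dopaminergic-like nuclei than either.

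Of the 1094 dopaminergic-like nuclei, 714 (65.3%) held both *Th* and *Slc6a3*, 182 (16.6%) held *Th* alone, 83 (7.59%) *Slc6a3* alone and 115 (10.5%) neither. *Ddc* was detected in 87.8% of these last nuclei, whose median was 2009 UMIs, against 8538.5 UMIs in the nuclei with both. At least 4 of the 6 genes were found in 52.9%, 74.5%, 25.7%, 66% and 73.5% of the dopaminergic-like nuclei of rats 1 to 5. Rat 3, with the lowest depth, was far below the others. Among GABA-like nuclei the share was 1.52%, 3.24%, 1.17% and 0.602% in rats 1, 2, 4 and 5, and in rat 3 it was 0 of 725, which allows a share of up to 0.414%. All 6 genes were found in 72 dopaminergic-like nuclei.

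Pairs of the genes were found together in neurons more often than their separate shares give. At 1000 UMIs per nucleus the nuclei with both genes were 2.11 to 3.45 times the number expected within rats. For *Th* and *Slc6a3* there were 236 such nuclei where 104.6 were expected. Within dopaminergic-like nuclei the ratio of observed to expected nuclei lay between 0.885 and 1.42, and the most this ratio can reach is lower there than over all neurons, because each gene is found in a larger share of the nuclei. *Slc18a2* with *Gch1* was highest, with 35 nuclei where 24.7 were expected, *Slc6a3* with *Gch1* had a ratio of 1.27, *Slc6a3* with *Slc18a2* 1.24 and *Th* with *Slc6a3* 1.18, and *Th* with *Ddc* was at 1.04. In thinned oligodendrocytes the pairs with at least 5 nuclei expected had ratios from 1.05, for *Th* with *Slc6a3* (148 nuclei where 140.4 were expected), to 1.96, for *Ddc* with *Gch1* (10 where 5.09 were expected), with *Th* and *Slc18a2* at 1.35 and *Slc6a3* and *Slc18a2* at 1.32. Without thinning, and with 0.5 added to each count, the log2 odds ratio was above 0 in every rat for 13 of 15 pairs over all neurons, with a median over pairs of 2.47. This held for 9 pairs within dopaminergic-like nuclei (median 1.49), 10 in the other neurons (median 1.49), 9 in GABA-like neurons (median 1.03) and 7 in oligodendrocytes (median 0.98), so the count within dopaminergic-like nuclei was close to those in nuclei of other classes. For *Th* with *Slc6a3* the mean over rats was 2.41 within dopaminergic-like nuclei, 1.04 in the other neurons, 2.0 over all neurons and 0.74 in oligodendrocytes. With 5 rats exact permutation of the signs of these values cannot go below p = 0.0625, and pairs with fewer than 5 nuclei expected, nearly all of them with *Slc10a4*, carry little information. The odds ratios above are of unthinned counts, and deeper nuclei detect more of every gene. Dopaminergic-like nuclei with both *Th* and *Slc6a3* had a median of 8538.5 UMIs, and those with neither 2009. Odds ratios of pairs of other genes were not computed, so the counts of pairs have no background share. Thinned to 1000 UMIs, the log2 odds ratio was above 0 in every rat for 15 pairs over all neurons (median 2.27). It was so for 4 within dopaminergic-like nuclei (median 0.77), 13 in the other neurons (2.13), 11 in GABA-like neurons (2.745) and 11 in oligodendrocytes (1.40). These are descriptions only, because the 0.5 added moves odds ratios of sparse pairs above 0 even with 0 nuclei holding both.

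**Figure D2:**
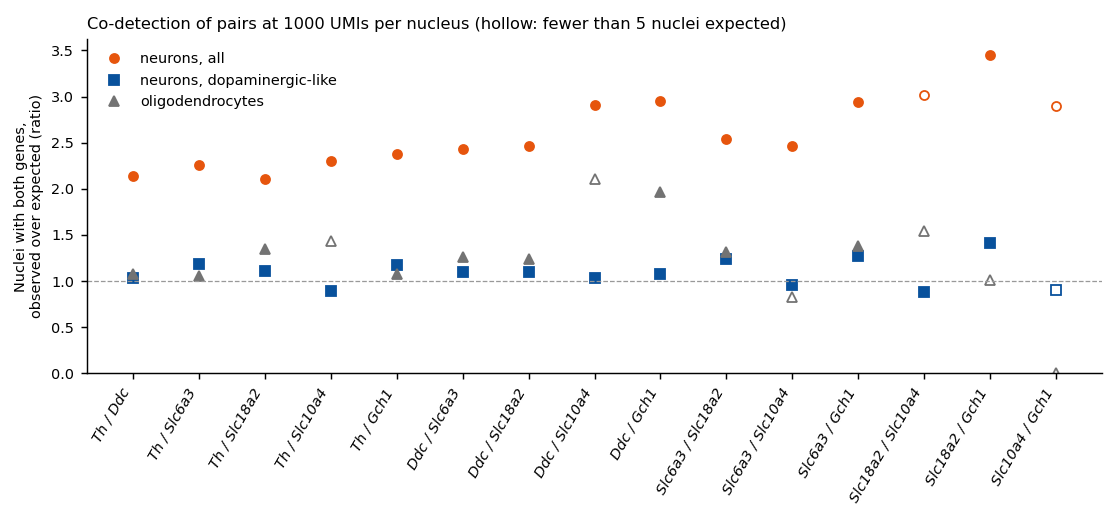
Nuclei with both genes of a pair, as a ratio of observed to expected within rats, after thinning to 1000 UMIs (linear axis, 1 meaning independence). Circles are all neurons, squares dopaminergic-like neurons and triangles oligodendrocytes, and hollow symbols mark pairs with fewer than 5 nuclei expected. All 15 neuron values lie above 2, and the dopaminergic-like values lie between 0.885 and 1.42.

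To compare nuclei with and without the transporter, counts were summed per rat over neurons with at least 1 *Slc6a3* UMI (30, 971, 283, 306 and 305 nuclei in rats 1 to 5) and over those with none, with *Slc6a3* itself left out. All 5 other genes were higher in the *Slc6a3*-positive sums by the quasi-likelihood test of edgeR (p adjusted after Benjamini-Hochberg), and 5.06% of 13660 genes were. The log2 fold was 2.33 (SE 0.23, adjusted p = 2.02e-07) for *Gch1*, 2.0 (SE 0.13, adjusted p = 4.15e-10) for *Th* and 2.10 (SE 0.10, adjusted p = 1.35e-12) for *Ddc*. It was 2.14 (SE 0.09, adjusted p = 9.93e-13) for *Slc18a2* and 2.34 (SE 0.24, adjusted p = 3.59e-07) for *Slc10a4*. The folds lay above those of between 99.67% and 99.82% of the genes tested. *Slc6a3*-positive neurons were deeper, with medians of 2256 to 10055.5 UMIs against 1629 to 9368.5, and 9 to 308 of them per rat were dopaminergic-like. With DESeq2, 4 of the 5 genes passed, where 3.78% of genes were higher, and *Gch1* did not (adjusted p = 0.46), though its log2 fold kept its sign. With no block for the rat 1 of the 5 passed, *Slc18a2*, where 0.187% of genes were higher. The log2 folds in that fit were 1.92 to 2.06, with SE of 0.25 for *Slc18a2* and 0.38 to 0.73 for the others.

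The same sums in oligodendrocytes, where 4.35% to 39.7% of nuclei held *Slc6a3*, gave log2 folds of 0.26 for *Th*, 0.25 for *Ddc*, 0.44 for *Slc18a2*, 0.00 for *Slc10a4* and -0.01 for *Gch1*, and none of the 5 passed (11 of 10656 genes, 0.103%, did by edgeR, and 475 had an unadjusted p under 0.05).

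Fits added after the data had been seen split the neurons by class. With dopaminergic-like neurons left out, 2 of 12641 genes passed by edgeR, and 489 had an unadjusted p under 0.05. The share higher was 0.00791%. The gene higher was *Ddc*, at 0.74 (SE 0.13, adjusted p = 0.037), and the gene lower *Calcr*, a calcitonin receptor gene named here after its value was seen, at -1.07 (SE 0.20, adjusted p = 0.0396). *Th* was then at 0.69 (adjusted p = 0.071). Within dopaminergic-like neurons alone, 4 of the 5 genes were higher, where 3.02% of 8148 genes were. The log2 folds there were 1.71 for *Slc18a2*, 1.5 for *Gch1*, 0.99 for *Th* and 0.79 for *Ddc*, and *Slc10a4* was at 0.84 (adjusted p = 0.18). Without the sub-cluster that carried *Gad2*, where 2.05% of 5807 genes were higher, *Slc18a2* at 1.17 (adjusted p = 7.87e-06) and *Th* at 0.64 (adjusted p = 0.045) passed, and *Ddc* at 0.67 (adjusted p = 0.059) and *Gch1* at 0.74 (adjusted p = 0.085) did not. In that fit rat 1 had 3 *Slc6a3*-positive nuclei and 1 negative, and rat 2 had 13 negative ones. Within all dopaminergic-like neurons rat 1 had 9 and 8. These sums rest on few nuclei.

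**Figure D3:**
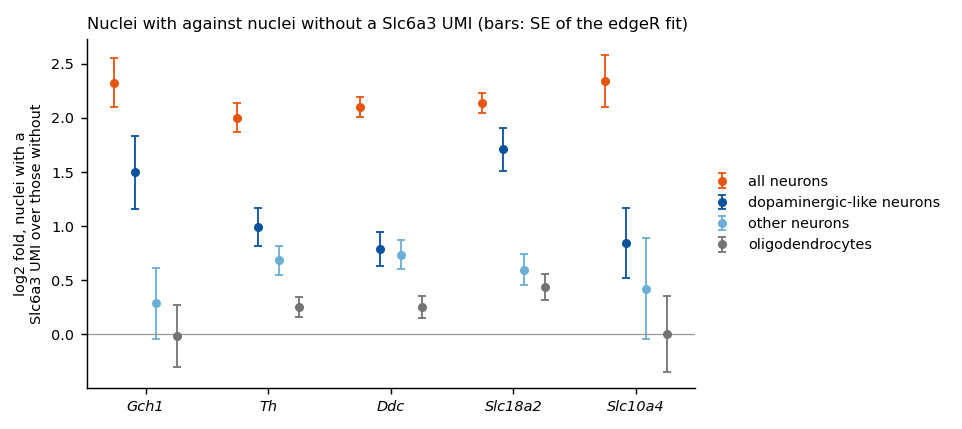
Log2 fold of *Slc6a3*-positive against *Slc6a3*-negative nuclei for the 5 other genes, from edgeR fits with the rat as a block; bars are standard errors. The values of all neurons lie between 2.0 and 2.34, and those of oligodendrocytes between -0.01 and 0.44.

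Of 36 further genes in 5 lists around dopamine handling, 28 could be tested in *Slc6a3*-positive against *Slc6a3*-negative neurons, and 6 were higher and 9 lower, with a median log2 fold of -0.04 against -0.02 over all genes, of which 5.06% were higher and 4.39% lower. In the tetrahydrobiopterin list 1 of 6 genes was higher and 0 lower. Among 5 tested genes of dopamine breakdown and onward synthesis, *Aldh1a1* was higher at 2.22 and *Maoa*, which encodes a monoamine oxidase, at 0.53. In the vesicle list the vesicle protein gene *Sv2c* was higher at 1.81 and *Sv2a* lower at -0.27. Of 5 tested carriers and receptors, the autoreceptor gene *Drd2* was higher at 2.08 and the serotonin transporter gene *Slc6a4* lower at -0.73. Of 8 genes that mark other transmitters 7 were lower, among them *Gad1* at -0.77, the glutamate carrier gene *Slc17a7* at -1.30 and the tryptophan hydroxylase gene *Tph2* at -1.06. *Aldh1a1* and *Drd2* were among the markers that named the dopaminergic-like class.

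Transcripts of these genes were also plentiful outside nuclei. Free RNA was taken as all barcodes of 1 to 99 UMIs, of which 61.5% to 84.9% held 1 UMI, and gave 921088 to 2919595 UMIs per rat. All nuclei here means all barcodes by the rule, with doublets and low-UMI clusters kept. Low-UMI cluster 4 alone held 3168 of their 18802 *Th* UMIs and 4092 of their 19880 *Slc6a3* UMIs. *Th* was at 5.21, 9.10, 9.19, 4.67 and 5.46 UMIs per 10000 in the free RNA of rats 1 to 5 and at 2.13, 3.41, 1.57, 0.886 and 1.52 in all nuclei. *Slc6a3* was at 6.46, 7.36, 6.11, 4.20 and 4.41 against 2.80, 3.62, 1.13, 0.934 and 1.47. For both genes every free RNA value lay above every value of nuclei, and how many of all genes are separated in this way was not counted. *Ddc*, at 3.66, 3.38, 4.90, 3.0 and 3.11 against 1.82, 2.92, 4.38, 1.67 and 2.17, was higher in the free RNA of each rat, but the ranges overlapped.

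In the edgeR quasi-likelihood fit, blocked by rat and with Benjamini-Hochberg adjusted p, 5 of the 6 genes were higher in free RNA, where 29.5% of 14272 genes were. The log2 fold was 2.07 (SE 0.25, adjusted p = 0.00017) for *Th* and 1.85 (SE 0.25, adjusted p = 0.00024) for *Slc6a3*, larger than for 94.0% and 91.4% of genes. *Slc10a4* at 0.93, *Gch1* at 0.81 and *Ddc* at 0.72 exceeded 75.1%, 72.2% and 70.1% of genes, with adjusted p of 0.0089, 0.018 and 0.0092. Barcodes of 5000 genes or more are outside the nuclear sums. Pooled over rats, they held 16.0% of *Gch1* UMIs, 15.2% of *Ddc*, 9.85% of *Slc18a2*, 9.26% of *Slc10a4*, 7.31% of *Slc6a3* and 4.75% of *Th*. Their part in these folds was not tested, and the share over all genes is not given here. *Gch1* did not pass without rat 2 (0.70, adjusted p = 0.084) or without rat 5 (0.61, adjusted p = 0.088). With library totals as the only scaling *Ddc* did not pass, at 0.55 (adjusted p = 0.071), where 25.1% of genes were higher. *Slc18a2* did not pass, at 0.51 (SE 0.27, adjusted p = 0.13). It passed with nuclei of at least 2000 UMIs, at 0.61 (adjusted p = 0.033), where 31.9% of 13409 genes were higher, and without rat 3 it was at 0.18 (adjusted p = 0.30). Against neurons in place of all nuclei only *Th*, at 2.18, and *Slc6a3*, at 2.05, passed, where 35.3% of genes were higher, and *Ddc* was at 0.17 (adjusted p = 0.46). With the second 45000 barcodes ranked by UMI total as free RNA, an alternative added after the data had been seen, all 6 passed, where 31.9% of genes were higher, *Slc18a2* at 1.22 (adjusted p = 0.015). Those barcodes reached down from 22 UMIs in rats 1 and 3 but from 558 in rat 2, so they are not the same kind of droplet in each rat. With no block for the rat, *Th* and *Slc6a3* passed, where 24.3% of genes were higher, and the log2 folds of all 6 genes kept their sign.

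Of the 36 genes of the lists, 27 could be tested, and 16 were higher and 2 lower in free RNA, with a median log2 fold of 0.98 against -0.04 over all genes, of which 29.5% were higher and 28.4% lower. In the tetrahydrobiopterin list 5 of 6 were higher, led by *Gchfr* at 2.58, *Spr*, which encodes sepiapterin reductase, at 2.24 and *Pcbd1* at 1.88. Of the transmitter genes 5 of 8 were higher, with the vesicular GABA transporter gene *Slc32a1* at 2.19 and *Slc17a7* at 1.93. In the breakdown list *Aldh1a1* at 1.76 and *Aldh2* at 1.34 were higher among 5 tested. In the vesicle list *Sv2a* was higher at 1.49 and *Sv2c* lower at -0.88, and of 4 carriers and receptors *Slc29a4* at 1.67 and *Slc6a4* at 1.38 were higher and *Drd3* lower at -1.64. Mitochondrial transcripts, which the rule for nuclei limits, made up 3.996% to 9.88% of free RNA and 0.284% to 1.74% of nuclear UMIs, and their part in these folds was not tested.

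Many UMIs of the genes lay in barcodes below the minimum set for nuclei. Pooled over all libraries, 72.3% of *Th* UMIs were in barcodes under 1000 UMIs, and for *Slc6a3* the share was 67.6%. It was 60.2% for *Slc18a2*, 60.2% for *Slc10a4*, 53.4% for *Ddc* and 53.4% for *Gch1*. The median over the 11941 genes with at least 1000 UMIs was 38.9% (quartiles 24.1% and 57.2%), and 43.6% of the UMIs of all genes lay there. In the library with the lowest share of each gene, that share was 54.7% for *Th*, 55.3% for *Slc6a3*, 42.8% for *Slc18a2*, 38.7% for *Slc10a4*, 43.5% for *Ddc* and 31.1% for *Gch1*. Nuclei by the rule held 17.0% of the *Th* UMIs and 26.7% of the *Ddc* UMIs.

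In oligodendrocytes, astrocytes and GABA-like neurons the levels lay below those in free RNA. In dopaminergic-like nuclei *Th* was at 71.1% ± 22.1 and *Slc6a3* at 95% ± 36.5 of the free RNA level of the same rat, and the means of the other 4 genes were between 259% and 322%. If all UMIs of a gene in oligodendrocytes came from free RNA, the share of free RNA in them would be 14.8% ± 6.53 (SD, n = 5) from *Th*, 15.2% ± 7.02 from *Slc6a3*, 17.8% ± 8.44 from *Ddc*, 25.8% ± 11.9 from *Slc10a4* and 12.5% ± 9.04 from *Gch1*. The shares from neuronal transmitter genes measured the same way were 14.6% from *Gad1*, 19.2% from *Gad2*, 12.1% from *Slc32a1* and 21.5% from *Slc17a6*. *Slc18a2* gave 34.7% ± 19.1, and 21.8% with the ranked barcodes. The median over the 6 genes, taken in each rat and then averaged over rats, was 16.3%, and 29.8% with cells typed by their own markers in place of clusters. Astrocytes gave 14.4% from *Th*, 16.2% from *Slc6a3*, 13.5% from *Ddc* and 38.5% from *Slc18a2*. Other classes gave higher shares. In the same order of genes, microglia gave 29.8%, 28.9%, 38.8% and 79.4%. *Rgs5*-led vascular nuclei gave 36.1%, 32.7%, 64.0% and 83.5%. In GABA-like neurons the shares from *Th* and *Slc6a3* were 6.94% and 7.05%, and their levels were below those of oligodendrocytes in every rat, with log2 ratios of -1.12 ± 0.14 and -1.10 ± 0.17, where 21.7% of 14176 genes were lower in every rat.

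**Figure D4:**
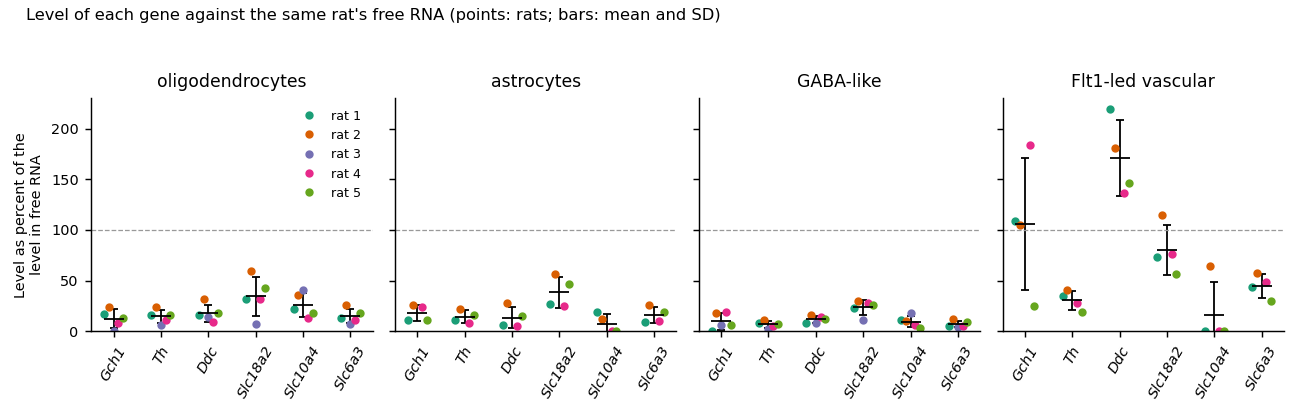
Level of each gene as a percent of its level in free RNA of the same rat, in oligodendrocytes, astrocytes, GABA-like neurons and *Flt1*-led vascular nuclei; points are rats, bars the mean and SD, and the dashed line 100%. Values of oligodendrocytes, astrocytes and GABA-like neurons stay under the line, with *Slc18a2* in oligodendrocytes up to 59.3%, and *Ddc* in *Flt1*-led nuclei lies between 137% and 219%.

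The mix of the 6 genes differed between free RNA and the neurons that express them. *Ddc* made up 20.8% ± 2.85 of the UMIs of the 6 genes in free RNA and 46.1% ± 6.21 in dopaminergic-like nuclei, and *Th* made up 37.6% ± 4.38 and 18.1% ± 2.06. In oligodendrocytes *Ddc* was at 22.7% and *Th* at 33.0%. Taken as the summed absolute difference of shares divided by 2, oligodendrocytes were 10.1 ± 3.95 points from free RNA and 26.0 ± 4.88 points from dopaminergic-like nuclei, and astrocytes 10.9 and 31.4 points. GABA-like neurons were about as far from either, at 19.0 ± 7.76 and 20.02 ± 6.86 points. *Flt1*-led nuclei had *Ddc* at 51.7% ± 10.1 of the mix.

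**Figure D5:**
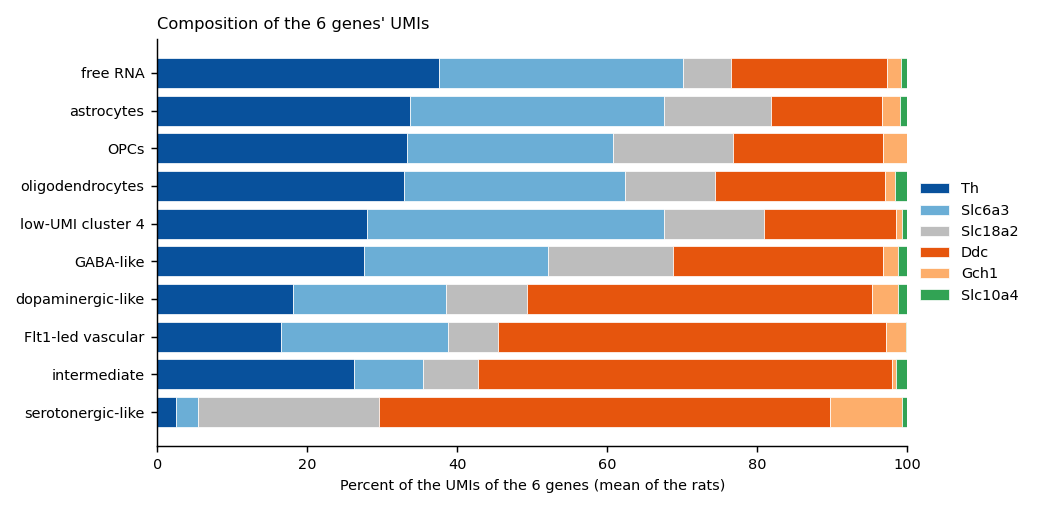
Share of the UMIs of the 6 genes taken by each gene (percent, mean over rats) in free RNA and in classes of nuclei. *Th* and *Slc6a3* make up most of the free RNA and oligodendrocyte mixes, and *Ddc* most of the intermediate, serotonergic-like and *Flt1*-led mixes.

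Across 38 neuronal sub-clusters, the genes most like each member among 12560 genes were named by Pearson's r of log2 levels, as a description, since sub-clusters share rats and depth. For *Th* they included *Pitx3* (0.82) and *Dhrs3* (0.80), and for *Ddc* they were *Lmx1b* (0.88), *Fignl1* (0.85) and *Slc10a4* (0.85). *Slc6a3* was most like *Tmem255b* (0.84), *Ntsr1* (0.80) and *Tmem207* (0.80), and *Slc18a2* most like *Gch1* (0.82), *Fignl1* (0.80) and *Slc10a4* (0.79). For *Gch1* they were *Slc18a2* (0.82), *Ston2* (0.80) and *Ddc* (0.78), and for *Slc10a4* *Ddc* (0.85), *Rreb1* (0.81) and *Chrnb3* (0.81). *Pitx3*, *Lmx1b* and *Chrnb3* were among the markers that named the dopaminergic-like class.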

How the data were processed

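Nuclei from the VTA of 5 rats were profiled with droplet 3′ snRNA-seq (10x Genomics, v3.1 chemistry), 1 library per rat. The deposited files are unfiltered UMI counts per gene and barcode made by the authors with Cell Ranger. The processing notes name version 8.0.1, whereas the header of the matrices names version 4. The genome build, the annotation and whether intronic reads were counted are not given in the sources used here. Libraries held 10193355 to 88576210 UMIs, which limits rat 3 most, and intervals and floors cover counting error only.

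The 6 genes and all gene lists were chosen with earlier results of these data known. Nuclei were barcodes with at least 1000 UMIs, more than 200 and fewer than 5000 genes and under 5% mitochondrial UMIs. Pairs of libraries shared 0 to 16 of these barcodes. The automatic doublet threshold of Scrublet marked almost none, so the highest-scoring 0.8% per 1000 barcodes were removed (1068 of 22084) before clustering. Sums over all nuclei in the free RNA comparison kept these barcodes and the low-UMI clusters. Clusters were made with scanpy 1.11.5 and leidenalg 0.10.2 (2000 variable genes, 30 components, 20 neighbours, resolution 1), without the 6 genes. Clusters with markers of 2 major types or neuron classes were set apart by a ratio of scores, 0.5 for classes, set after the data were seen. Clusters above 0.4, the limit for types, were kept if only their own type had markers among their most raised genes. These were the *Flt1*-led cluster (0.762) and a cluster of 38 OPCs (0.656). Sub-cluster 29 scored 3.35 for serotonergic and 1.80 for glutamate markers, over the limit for classes. It was named serotonergic-like because all 3 serotonergic markers were raised and *Tph2* was among its most raised genes.

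Levels were compared within rats by exact sign-flip permutation tests. A gene was counted as higher in every rat from the levels themselves, a rule set after the data were seen, and 0.5 UMIs were added only for log2 ratios. Sums per rat were tested in edgeR 4.0.16 (R 4.3.3), blocking on the rat; DESeq2 1.42.0 was an alternative tool. Both sums of a pair came from the same library, and their deviations from the group means correlated at 0.396 to 0.577 in the free RNA fit and 0.329 to 0.816 in the *Slc6a3* fit. On simulated data, the free RNA fit (14272 genes) recovered 66% of 100 genes changed by a log2 fold of 1 and 94% of 100 changed by 2, with 9 false calls. The *Slc6a3* fit (13660 genes) recovered 59% and 94%, with 5 false calls. The simulated counts had the same dispersion for every gene and no differences between rats, which these data have. They therefore do not measure error rates on these data. Genes named beyond the 6 were those of the lists that passed, and the 3 genes most like each member; a few of these are not reported here. Alternatives were other scalings, filters, depth minimums, thinning to 1000 UMIs, other definitions of free RNA and of neurons, fits with no block, and leaving out each rat.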

Additional observations from a re-analysis of the deposited data

Results flagged for a closer look

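Of 53 sets of values over 4 or 5 rats, 7 held a rat that lay far from the others by Dixon's test. Chance does this in about 1 in 20 groups. Rat 2 accounted for 5 of them. Its level (UMIs per 10000) was 1.05 for *Th* and 0.869 for *Slc6a3* in GABA-like neurons, where the other rats lay between 0.226 and 0.434 and between 0.234 and 0.398. In oligodendrocytes it was 2.19 for *Th* and 1.89 for *Slc6a3*, against 0.516 to 0.888 and 0.461 to 0.844, and in OPCs 2.23 for *Slc6a3*, against 0.288 to 0.709. Rat 3 accounted for the others, with *Slc10a4* at 0.814 in dopaminergic-like neurons, against 0.149 to 0.340, and *Slc18a2* at 2.06 in free RNA, against 0.771 to 1.03.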

How the results depend on the processing

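The fits had the rat as a replicate block. With no replicate block, 2 of the 6 genes passed in the free RNA comparison, where 24.3% of all genes were higher. With the block 5 had passed, where 29.5% were. In the *Slc6a3* comparison 23 genes and 1 of the 5 members passed without the block, where 1291 and 5 had with it. In the free RNA comparison the log2 folds of the members kept their sign in every alternative. Against neurons only, 2 members passed in the free RNA comparison, where 35.3% of 13483 genes were higher. In the *Slc6a3* comparison the number of genes passing was 846 with DESeq2, 464 after thinning, 11 in oligodendrocytes (0 members, *Gch1* at -0.0149), and, in fits added after the data had been seen, 2 with dopaminergic-like neurons left out (1 member), 448 within them and 197 without the sub-cluster carrying *Gad2* (2 members). The cause of these changes was not tested. Leaving out 1 rat gave 838 to 1499 of 13185 to 13699 genes, lowest without rat 4 (838) and rat 5 (860), and all 5 members each time. In the free RNA comparison it gave 6609 to 9000 of 13688 to 14760 genes and 4 to 5 members. The number of members higher in dopaminergic-like than in other neurons in every rat was 2 with low-UMI clusters counted as other neurons. In that alternative 9.39% of 14441 genes were. The number was 5 to 6 with 1 rat left out, where the share of all genes was not computed. Fewer rats make that rule easier to meet. Low-UMI clusters 4 and 5 themselves had dopaminergic markers among their most raised genes. The median free RNA share over the members in oligodendrocytes was 29.8% with cells typed by their own markers, and 13.2% to 18.6% with 1 rat left out. Library totals alone moved the median log2 fold of all genes in the free RNA comparison to -0.21 from -0.04. Counts were lowest for *Slc10a4* (634 UMIs in all nuclei) and *Gch1* (1683).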

Other observations

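Low-UMI cluster 4, with 1122 barcodes at a median of 1210.5 UMIs, 1004 of them from rat 2, was left out of all classes. In rats 1, 2 and 5 its level (UMIs per 10000) was 44.9, 23.3 and 15.2 for *Slc6a3* and 20.7, 19.6 and 14.0 for *Th*, above every value of dopaminergic-like nuclei. *Ddc* was at 13.2, 8.01 and 12.3 and *Slc18a2* at 12.8, 7.83 and 6.37. Its *Ddc* UMIs per *Th* UMI were 0.642 as a mean over the 3 rats, from 0.409 in rat 2 to 0.878 in rat 5, against means over 5 rats of 0.564 in free RNA (0.372 to 0.702) and 2.59 in dopaminergic-like nuclei (1.89 to 3.27).

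Microglia had *Gch1* at 0.429, 0.403, 0.651 and 0.224 in rats 1, 2, 4 and 5, which was 165% ± 109 of the free RNA level. The UMIs lay in 32 of 381 nuclei. In these 32 nuclei *Ddc* was at 5.59 and *Th* at 4.68, against 0.872 and 1.85 in the nuclei without *Gch1*.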
